A study of Mus musculus with 12 samples.

Results

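The small noncoding RNAs described here are 102 of the 39666 genes in a count table of mouse airway eosinophils. They are the genes whose symbol names a small nucleolar RNA (Snora, Snord), a Cajal body RNA (Scarna), a small nuclear RNA (Rnu), a 7SL or 7SK RNA, a Y RNA, or Rmrp, Rpph1, Terc or Vaultrc5, with a total of at least 15 counts over the 12 libraries. Of 166 symbols that matched, 28 had no count and 36 had totals under that minimum. The 102 members were 53 box C/D and 27 box H/ACA small nucleolar RNAs (snoRNAs), 7 Cajal body RNAs, 5 spliceosomal RNAs, 2 7SL genes, 2 Y RNAs, the histone-processing RNA Rnu7, 7SK (Rn7sk), and Rmrp, Rpph1, Terc and Vaultrc5.

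All libraries came from wild-type C57BL/6 mice aged 8 to 12 weeks that were sensitized to ovalbumin (20 µg with 4 mg of alum on days 0 and 7), inhaled nebulized 1% ovalbumin for 40 minutes on each of days 16 to 18 before harvest on day 19. Eosinophils of 6 lavage pools, named lavages 1 to 6, were each sorted into cells with the myeloid receptor TREM-1 at the surface (TREM-1+) and cells without it (TREM-1-). Both fractions thus share the inflamed lung, and there was no group of untreated mice. The comparison asks how the 2 fractions of the same lavage differ. Rows of eosinophil marker genes were abundant in both, with a summed level of 4355 to 6542 CPM (counts normalised for library size) in TREM-1- and 4324 to 6451 CPM in TREM-1+ libraries, although 4 of the 8 genes were called lower in TREM-1+ (Siglecf, Ccr3, Il5ra and Il1rl1) and 2 higher (Prg2 and Alox15). Trem1, which checks the sort, was higher in TREM-1+ in 6 of 6 lavages (log2 fold change 1.62 ± 0.07, SE).

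Small noncoding RNAs act inside ribonucleoprotein particles. Box C/D snoRNAs guide ribose methylation and box H/ACA snoRNAs guide pseudouridylation, mostly of ribosomal RNA, while Cajal body RNAs (scaRNAs) guide the same changes in spliceosomal RNAs, and a few snoRNAs, such as U3 and U17, are needed to cut the ribosomal RNA precursor instead. Most mouse snoRNAs are cut out of introns of host genes. 7SL RNA is the scaffold of the signal recognition particle, 7SK RNA holds the elongation factor P-TEFb inactive, and the RNAs of RNase P (Rpph1) and RNase MRP (Rmrp) belong to enzymes that trim transfer RNA and ribosomal RNA precursors. These last 4 are made by RNA polymerase III.

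The RNAs that passed the test between the fractions are shown first, with the sequences of the GENCODE M21 transcripts (GRCm38), read 5′ to 3′. Scarna10, also called U85, is an unusual scaRNA with both a box C/D and a box H/ACA domain that acts on U5 spliceosomal RNA. Its annotated transcript has 325 bases, of which the first 80 (positions 1 to 80) and the last 80 (positions 246 to 325) are given. Capitals mark the C box, TGATGA, at positions 7 to 12 and the D box, CTGA, at positions 317 to 320. Snord17, a box C/D snoRNA, is given whole (238 bases) with its C box at positions 7 to 12 and its D box at positions 231 to 234 in capitals.
Scarna10 5′ end: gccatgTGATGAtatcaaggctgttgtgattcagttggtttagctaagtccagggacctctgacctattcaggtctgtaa
Scarna10 3′ end: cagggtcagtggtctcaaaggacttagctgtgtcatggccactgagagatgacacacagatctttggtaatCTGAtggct
Snord17: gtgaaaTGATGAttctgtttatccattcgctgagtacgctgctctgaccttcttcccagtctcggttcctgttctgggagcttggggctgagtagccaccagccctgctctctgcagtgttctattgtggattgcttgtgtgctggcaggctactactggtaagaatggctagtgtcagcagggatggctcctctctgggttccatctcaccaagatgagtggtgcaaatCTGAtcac

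The other RNA that passed, Snora73b, is a copy of the box H/ACA snoRNA U17 and is nearly the same as the copy Snora73a. The 2 are printed so that the few bases on which their separate counts rest can be seen. They differ at 7 of 205 positions (96.6% identity), which are in capitals.
Snora73b: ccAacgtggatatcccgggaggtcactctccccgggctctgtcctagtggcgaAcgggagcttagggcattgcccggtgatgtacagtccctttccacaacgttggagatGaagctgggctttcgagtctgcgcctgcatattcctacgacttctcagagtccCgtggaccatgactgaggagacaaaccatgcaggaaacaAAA
Snora73a: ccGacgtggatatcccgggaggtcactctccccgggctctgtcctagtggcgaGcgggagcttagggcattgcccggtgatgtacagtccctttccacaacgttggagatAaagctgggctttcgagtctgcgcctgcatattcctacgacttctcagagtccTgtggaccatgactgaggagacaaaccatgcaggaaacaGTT

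Exact C and D boxes in the first and last 20 bases, searched on the transcript's own strand, were found together in 33 of 51 box C/D members with a sequence, in 2 of 7 Cajal body members and in 0 of 27 box H/ACA members. Among all 1558 snoRNA and scaRNA transcripts of that annotation 20.2% held both. The trinucleotide ACA ending 3 bases before the 3′ end, the mark of the H/ACA class, was present in 21 of 27 box H/ACA members, among them both Snora73 copies, in 0 of 51 box C/D members and in 19.3% of the same 1558 transcripts. These are matches of letters only, and a variant box would not be found by this search.

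Of the 102 members 47 had enough counts to be tested. The other 55, of which 33 are box C/D and 18 box H/ACA snoRNAs, had mean levels of 0.0683 to 0.706 CPM and fell under the filter on low counts. In TREM-1+ eosinophils 3 members were lower (adjusted p below 0.05, edgeR quasi-likelihood test with the lavage as a block) and 0 were higher. At an unadjusted p below 0.05 the counts were 11 lower, with the identical 7SL rows counted as 2, and 0 higher, which is 23.4% of members lower beside 11.4% of all genes, and DESeq2 and limma-voom also called 0 higher. Over all 18302 genes tested, 9.82% were called, 6.72% lower and 3.1% higher. The share of members called lower, 6.38%, was close to that of all genes, so the number of calls is no result about the members. The 47 fold changes had a median of -0.18 on the log2 scale, beside 0.00 for all genes tested, and 33 of them (70.2%) were below 0, beside 49.1% of all genes. With library totals alone the members' median was -0.06, beside 0.13 for all genes, and 26 of 47 were below 0.

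Scarna10 was the member with the clearest difference. In order of lavages 1 to 6, its level was 31.1, 36.9, 29.9, 31.0, 40.9 and 48.8 CPM in TREM-1- cells. In TREM-1+ cells it was 23.8, 14.1, 13.0, 9.65, 18.1 and 23.9 CPM. Every TREM-1+ value lay below every TREM-1- value, and Scarna10 was the single tested member of which this held. Over all genes tested, groups did not overlap in this direction in 0.656%. The mean fell from 36.4 ± 7.38 to 17.1 ± 5.89 CPM (SD, n = 6), a log2 fold change of -1.11 ± 0.12 (SE, edgeR adjusted p = 5.86e-06). The fall was smallest in lavage 1 (-0.39 on the log2 scale) and largest in lavage 4 (-1.68). With 6 pairs, an exact permutation test that flips the signs of the differences (two-sided) cannot go below p = 0.03125 (2 of 64 patterns). Scarna10 had that value, which follows from the lack of overlap and adds nothing to it. Scarna10 was called in all 16 alternative fits, with log2 fold changes between -1.27 and -0.84.

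Snora73b fell from 3.37 ± 0.910 to 1.77 ± 0.617 CPM (SD, n = 6). The TREM-1- libraries of lavages 1 to 6 held 2.33, 2.34, 3.59, 4.28, 3.26 and 4.42 CPM and the TREM-1+ libraries 1.39, 1.34, 1.70, 1.13, 2.48 and 2.58 CPM. The values were lower in TREM-1+ within each of the 6 lavages, while the ranges of the 2 fractions overlapped. The fold change, -0.91 ± 0.25 on the log2 scale (SE), had an edgeR adjusted p of 0.0127, and without lavage 4 it was -0.75 with an adjusted p of 0.0711. Neither lavages 1 and 2 alone (-0.75, adjusted p = 0.298), lavages 3 to 6 alone (-0.99, adjusted p = 0.0694) nor the lavages other than 3 and 4 (-0.67, adjusted p = 0.141) gave a call. Its near copy Snora73a had 2.37 ± 0.920 CPM in TREM-1- against 1.33 ± 0.774 CPM in TREM-1+ libraries (log2 fold change -0.88 ± 0.31, edgeR adjusted p = 0.079), lower in 5 of 6 lavages. The sources used here do not say how reads common to both copies were divided, so their separate levels are uncertain.

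Snord17 fell from 9.20 ± 5.26 to 5.63 ± 2.13 CPM (SD, n = 6). Its values in lavages 1 to 6 were 4.06, 7.12, 6.26, 9.55, 9.07 and 19.1 CPM in TREM-1- and 5.24, 5.36, 4.68, 3.49, 5.29 and 9.73 CPM in TREM-1+ eosinophils. The TREM-1+ value was lower in lavages 2 to 6 and higher in lavage 1, and lavage 6 was the highest in both fractions. The fold change, -0.60 ± 0.17 on the log2 scale (SE), had an edgeR adjusted p of 0.0197. That call was lost without lavage 4 (-0.47, adjusted p = 0.114), lavage 5 (-0.57, adjusted p = 0.078) or lavage 6 (-0.51, adjusted p = 0.15), without lavages 3 and 4 (-0.49, adjusted p = 0.095), with library totals in place of scaling factors (-0.48, adjusted p = 0.0526) and in lavages 1 and 2 alone, where the fold change was -0.02 (adjusted p = 0.984).

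**Figure D1:**
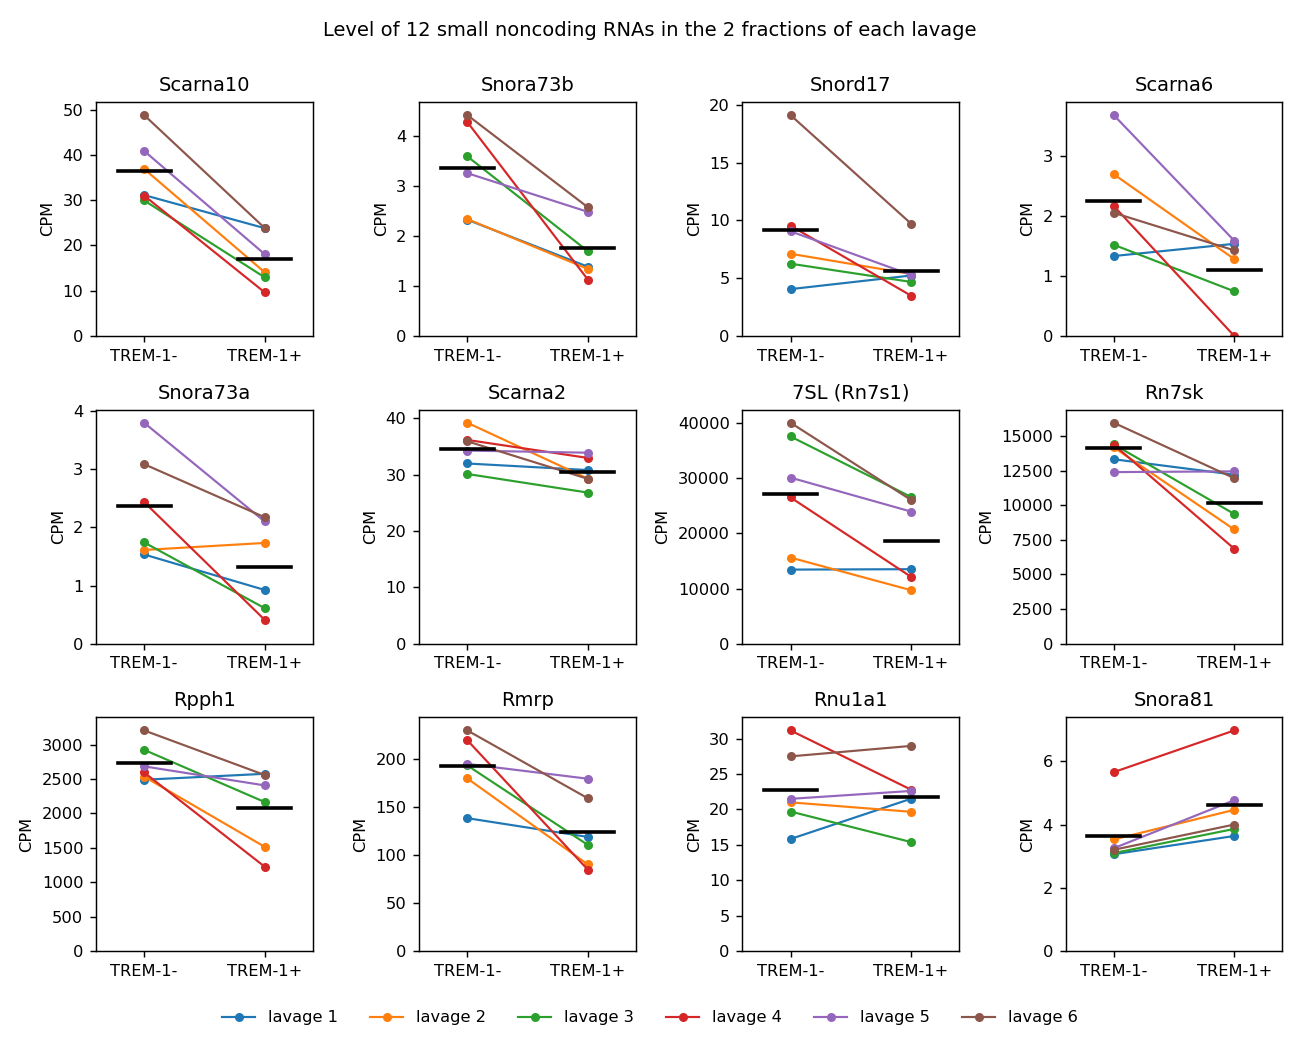
Level in CPM (vertical axes start at 0) of 12 small noncoding RNAs in the TREM-1- and TREM-1+ library of each lavage, with 1 coloured line per lavage and a black bar for each fraction's mean. Scarna10 falls in all 6 lavages without overlap of the fractions, while Rnu1a1 has no common direction and Snora81 lies higher in TREM-1+ in all 6.

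The other 4 Cajal body RNAs that were tested did not pass. Scarna6 had 2.25 ± 0.859 CPM in TREM-1- against 1.10 ± 0.619 CPM in TREM-1+ libraries (SD, n = 6), with a log2 fold change of -1.04 ± 0.38 (SE, edgeR adjusted p = 0.0961). It was lower in lavages 2 to 6 and was listed at 0 in the TREM-1+ library of lavage 4, where the limit that a count of 0 allows is 0.308 CPM. Without lavage 1 it was called (-1.32, adjusted p = 0.046). Scarna2, which guides modification of U2 RNA, was lower in 6 of 6 lavages by a small amount, 34.6 ± 3.24 against 30.5 ± 2.62 CPM (-0.18 ± 0.07, adjusted p = 0.123). Scarna13 stood at -0.14 ± 0.09 on the log2 scale (adjusted p = 0.469) and Scarna3a at 0.22 ± 0.41 (adjusted p = 0.852). The summed CPM of the 7 Cajal body members was lower in TREM-1+ in 6 of 6 lavages, at 95.1 ± 9.16 against 69.0 ± 7.36 CPM, and Scarna10 is a large part of both sums.

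The abundant RNAs made by RNA polymerase III had lower values in most TREM-1+ libraries but did not pass the test. The RNA of RNase MRP, Rmrp, had 138, 179.5, 193, 219, 195 and 229 CPM in the TREM-1- libraries of lavages 1 to 6 and 119, 90.2, 111, 84.8, 179 and 159 CPM in the TREM-1+ libraries. The TREM-1+ value was the lower one in each lavage. The fold change, -0.66 ± 0.19 on the log2 scale (SE), had an edgeR adjusted p of 0.126. Rpph1, the RNA of RNase P, had a mean of 2739 ± 275 CPM in TREM-1- against 2076 ± 571 CPM in TREM-1+ libraries (SD, n = 6), with a log2 fold change of -0.45 ± 0.16 (adjusted p = 0.223). It was lower in TREM-1+ in 5 lavages, and lavage 1 was the exception by 0.05 on the log2 scale.

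7SK RNA was counted at 13324, 14184, 14399, 14379, 12396 and 15962 CPM in TREM-1- and at 12209, 8248, 9370.3, 6857, 12449.9 and 11956 CPM in TREM-1+ eosinophils. The TREM-1- values of Rn7sk lay close together, and the TREM-1+ values spread from near the TREM-1- level, in lavages 1 and 5, down to less than that of any TREM-1- library. This gave -0.50 ± 0.16 on the log2 scale (SE, edgeR adjusted p = 0.17). The 7SL genes Rn7s1 and Rn7s2 had identical counts in all 12 libraries and identical transcripts of 300 bases, so they stand for 1 measurement. Each had 27217 ± 11008 CPM in TREM-1- against 18656 ± 7691 CPM in TREM-1+ libraries (SD, n = 6; log2 fold change -0.54 ± 0.15, adjusted p = 0.119). By lavage the difference in Rn7s1 was 0.01, -0.69, -0.50, -1.13, -0.33 and -0.62 on the log2 scale. With DESeq2 in place of edgeR, Rmrp (adjusted p = 0.00463), Rn7sk (adjusted p = 0.0105) and Rpph1 (adjusted p = 0.0181) were called lower with nearly the same fold changes. With no filter on low counts, these 3 and both 7SL rows were called lower by edgeR. The same 5 rows were called in lavages 1 and 2 alone, but 2 pairs are too few to measure the spread between lavages. In those pairs Rn7s1 differed by 0.01 and -0.69 and Rpph1 by 0.05 and -0.74 on the log2 scale.

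These few RNAs hold nearly all the counts of small noncoding RNAs. All 102 members took 6.86 ± 2.23% of the counts of TREM-1- libraries and 5.17 ± 1.68% of those of TREM-1+ libraries (SD, n = 6), of which 7SL, 7SK, Rpph1 and Rmrp made up 6.84 ± 2.23% and 5.15 ± 1.68%. Without 7SL and 7SK, the members' share was 0.305 ± 0.0336% and 0.250 ± 0.0562%. The 53 box C/D members together held 0.00706 ± 0.00207% and 0.00714 ± 0.00219%. Shares of counts are not corrected for transcript length. RNA was isolated on silica columns, which as background retain short RNAs less well than long ones, so the shares may not give the cells' own proportions.

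The spliceosomal RNAs showed no common direction. Of 5 tested members 3 were below 0 and 2 above, with 0 called. Rnu1a1, a gene of U1 RNA, which recognizes the 5′ splice site, had 22.8 ± 5.56 CPM in TREM-1- against 21.8 ± 4.44 CPM in TREM-1+ libraries (SD, n = 6; log2 fold change -0.04 ± 0.10, edgeR adjusted p = 0.874). Its counts equalled those of 6 other rows of the table in every library, so this value is 1 share of a larger group of copies. Rnu2-10, a gene of U2 RNA, which pairs with the branch site, scattered from 8.81 to 57.4 CPM in TREM-1- libraries and from 0 to 38.5 CPM in TREM-1+ libraries. It was listed at 0 in the TREM-1+ library of lavage 4, whose partner held 418 counts. Its log2 fold change was -0.56 ± 0.76 (edgeR adjusted p = 0.796), and it was called lower with no filter on low counts.

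Among the remaining single members, Terc, the template RNA of telomerase, had 2.09 ± 0.316 CPM in TREM-1- against 1.86 ± 0.494 CPM in TREM-1+ libraries (SD, n = 6; edgeR adjusted p = 0.801). Rny1, a Y RNA bound by the Ro protein, had 0.667 ± 0.398 and 0.530 ± 0.378 CPM (adjusted p = 0.819), and Vaultrc5, the RNA of the vault particle, 1.13 ± 0.657 and 1.05 ± 0.591 CPM (adjusted p = 0.922). Rny3 and Rnu7, the RNA of the histone 3′-end processing particle, were too low for a test. At these levels a difference of the size seen in Scarna10 was within the spread between lavages of Rny1, whose paired differences ran from -2.21 to 1.39.

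In the 2 guide snoRNA classes most members lay near 0 or scattered. Of 20 box C/D members tested 14 were below 0, with a median log2 fold change of -0.12, and of 9 box H/ACA members 4 were below 0, with a median of 0.13. Snord3b4, a gene of the U3 RNA that directs the first cuts of the ribosomal RNA precursor, had 32.7 ± 14.8 CPM in TREM-1- against 30.6 ± 12.2 CPM in TREM-1+ libraries (SD, n = 6; log2 fold change -0.08 ± 0.09, edgeR adjusted p = 0.731). Snora28, among the more abundant box H/ACA members, had 2.48 ± 0.609 and 2.83 ± 1.17 CPM (adjusted p = 0.847). Snora81 was the single tested member, 1 of 47, with a higher value in TREM-1+ in 6 of 6 lavages, beside 5.08% of all genes tested. Its levels were 3.07, 3.53, 3.10, 5.66, 3.26 and 3.21 CPM in TREM-1- and 3.64, 4.47, 3.87, 6.98, 4.78 and 4.01 CPM in TREM-1+ libraries, so the 2 ranges overlapped. Its log2 fold change of 0.35 ± 0.18 (SE) did not pass (edgeR adjusted p = 0.299). The exact sign-flip permutation test gives p = 0.03125 for any member of 1 sign in 6 of 6 lavages, so it adds nothing to that choice.

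Of the 47 tested members 4 were lower in 6 of 6 lavages, namely Scarna10, Snora73b, Rmrp and Scarna2. That is 8.51%, beside 8.31% of all genes tested. Among members below the filter, Snord55 was lower in 6 of 6 lavages, with 0.495, 0.468, 0.817, 1.05, 0.597 and 0.847 CPM in TREM-1- and 0.103, 0.0559, 0, 0, 0.573 and 0.172 CPM in TREM-1+ libraries. The 2 fractions were nearly equal in Snord55 in lavage 5 and did not come close in the other lavages. It entered the test, and was called lower, when the filter was set by the whole design or left out. Snord4a, also untested, had higher CPM in TREM-1+ in 6 of 6 lavages, at 0.182 ± 0.158 (TREM-1-) and 0.346 ± 0.201 CPM (TREM-1+; SD, n = 6). Its counts were equal in the 2 fractions of lavage 3 (9 and 9) and of lavage 4 (1 and 1), where only library size differed. No library held more than 10 counts of it, so no consistent rise can be read from these values.

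With the 7SL rows counted once, all 14 tested RNAs whose annotated transcript has at least 200 bases had log2 fold changes below 0, from -1.11 for Scarna10 to -0.08 for Snord3b4, with a median of -0.53. Of the 30 shorter ones 16 were below 0 and 14 above, with a median of -0.05 and a range of -0.74 to 0.77. The 2 tested members without a GENCODE sequence are in neither group. These are Snord73b (-0.25, 71 bases in RefSeq) and Snord94 (-0.22, 137 bases in RefSeq), both short and below 0. The 3 called RNAs and the 11 rows with an unadjusted p below 0.05 are all in the longer group. The boundary was chosen after these values were seen, and no test was made of it. Just inside it lie Snora73a and Snora73b (205 bases), Snord3a (214) and Snord3b4 (215), and just outside it Snora74a (196), Rnu2-10 (191) and Snora23 (184), all also below 0. Under 16 alternative fits the longer RNAs were 14 of 14 below 0 in all but 2. Snord3b4 was above 0 with library totals alone and in lavages 1 and 2 alone, which left 13 of 14. With library totals alone the median of all genes moved to 0.13, and all 14 lay below it. These fits reuse the same libraries and the same RNAs, so they give no separate support to the boundary.

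Length and level were not independent among these RNAs. The longer group had a median level of 23.2 CPM and the shorter one 1.26 CPM, and low counts give wide scatter. Within the range of 1 to 5 CPM, 5 of 5 longer and 7 of 17 shorter RNAs were below 0, with medians of -0.88 and 0.04. Both near-identical Snora73 copies are among these 5. The whole longer group also holds both U3 genes, Snord3a and Snord3b4, so its RNAs are not independent of each other. Annotated lengths also differ by source. RefSeq (GRCm38.p6) gives 71 bases for Scarna10 and 61 for Scarna2, against 325 and 414 in GENCODE, and 345 for Vaultrc5 against 143. By RefSeq lengths 13 of 13 RNAs of at least 200 bases and 19 of 33 shorter ones were below 0.

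**Figure D2:**
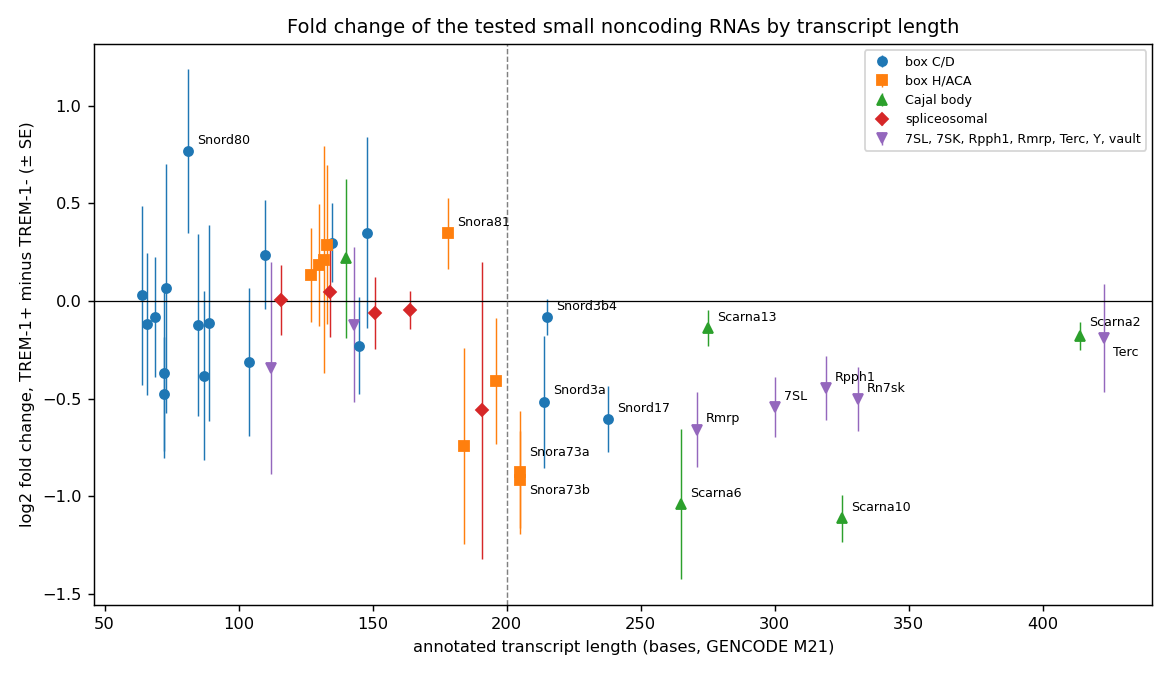
Log2 fold change (TREM-1+ minus TREM-1-, error bars SE) of the tested members with a GENCODE length against that length in bases, coloured by class. 7SL is drawn once, with a dashed line at 200 bases. All 14 points right of the line lie below 0, and the 30 left of it lie on both sides.

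The size of these differences varied between lavages. The median of the 14 longer RNAs was -0.09, -0.71, -0.47, -1.10, -0.36 and -0.50 on the log2 CPM scale in lavages 1 to 6, and 8, 13, 11, 13, 11 and 14 of them were below 0. The median of the 30 shorter RNAs was 0.20, -0.03, -0.25, -0.02, -0.09 and 0.12. In the longer group the median was nearest to 0 in lavage 1 and farthest from it in lavage 4, and in the shorter group lavage 1 had the highest median and lavage 3 the lowest. The total count was lower in the TREM-1+ library of every lavage, by log2 ratios of -0.14, -0.26, -0.41, -0.94, -0.28 and -0.01. Lavage 4, with the lowest ratio, had the TREM-1+ library of lowest depth (8626701 counts, against 14656932 to 21234053 in the other 11). In lavage 6 the totals were nearly equal and 14 of 14 longer RNAs were below 0. Without lavage 4 the longer RNAs had a median of -0.45 and 14 of 14 were below 0. The part of depth in the size of the differences was not tested.

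**Figure D3:**
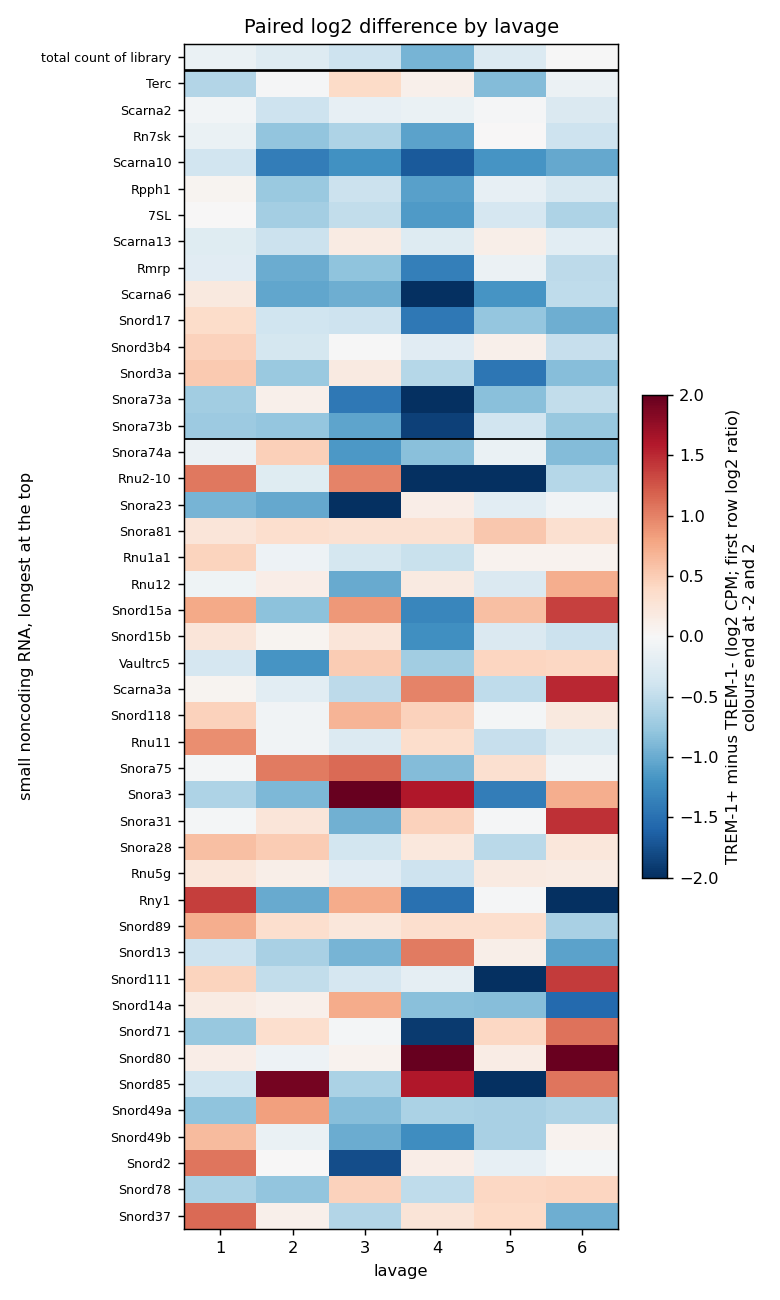
Paired log2 difference (TREM-1+ minus TREM-1-) of each tested member with a known length in each lavage, longest at the top, with a black line at 200 bases and, as the first row, the log2 ratio of total counts. Blue cells, lower in TREM-1+, fill most of the upper block from lavage 2 on and are palest in lavage 1.

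Marker genes of other cell types moved with the fraction too. Of 7 tested T and innate lymphoid cell markers 5 were called higher and 0 lower, and their summed level ran from 8.06 to 48.8 CPM in TREM-1- and from 9.16 to 91.9 CPM in TREM-1+ libraries. Of 7 tested neutrophil markers 6 were called higher and 1 lower, with sums of 1296 to 1903 and 1039 to 1880 CPM. The neutrophil sum was higher in TREM-1+ in 0 of 6 lavages, while most single markers went the other way. S100a8, S100a9, Ly6g, Ngp, Ltf and Csf3r were called higher and Retnlg lower, with a median log2 fold change of 0.92 over the 7. Of 6 tested monocyte and interstitial macrophage markers Ccr2 and Fn1 were called higher and Ly6c2 lower (sums of 733 to 1329 and 641 to 1230 CPM), and of 6 tested macrophage markers Cd68 was called higher and Adgre1 lower (1895 to 2287 and 1907 to 2359 CPM). Their part in the differences of the small RNAs was not tested. In such bulk libraries fewer cells with an RNA and less of it in each cell cannot be told apart.

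The host genes of the 3 RNAs that fell were not called lower. By GENCODE M21, 77 of the 102 members lie within a gene on the same strand, 44 wholly in an intron and 33 overlapping an exon of some transcript. Scarna10 lies in Ncapd2, which encodes a condensin subunit, and overlaps an exon of an annotated Ncapd2 transcript. The sources used here do not say how reads of the shared bases were divided between Scarna10 and Ncapd2. Ncapd2 rose from 4.28 ± 0.789 to 6.60 ± 2.24 CPM (SD, n = 6; log2 fold change 0.58 ± 0.17, edgeR adjusted p = 0.0259) and was higher in 6 of 6 lavages. The call of Ncapd2 was lost without lavage 1, 3, 4 or 6 (adjusted p 0.0603 to 0.128) and without both lavages 3 and 4 (0.308). Within each lavage the difference of Scarna10 was below that of Ncapd2, by a mean of -1.72 ± 0.588 on the log2 scale (SD, n = 6). That sign was fixed in advance, because Scarna10 was lower and Ncapd2 higher in 6 of 6 lavages, so no test of it is given. Snord17 lies in Snx5, a sorting nexin gene, with 17.5 ± 2.84 CPM in TREM-1- against 20.9 ± 3.73 CPM in TREM-1+ libraries (log2 fold change 0.24 ± 0.10, adjusted p = 0.166). Both Snora73 copies lie in Rcc1, which encodes the exchange factor of Ran, and in the noncoding host Snhg3, whose log2 fold changes were -0.42 ± 0.27 (adjusted p = 0.453) and -0.07 ± 0.33 (adjusted p = 0.948).

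Of 24 tested members with a tested host, 13 had the direction of the host, 11 with both below 0 and 2 with both above. In 3 the member was below and the host above 0, namely Scarna10, Snord17 and Scarna6, and in 8 the reverse. Gas5, for example, had a fold change of -0.16 on the log2 scale (adjusted p = 0.679), beside 0.77 ± 0.42 for Snord80 and -0.12 ± 0.36 for Snord78, which lie in it. The sequence of a member inside an intron is also present in unspliced host RNA, and the counts do not separate the 2 sources. Where a member overlaps an exon of its host, reads of the shared bases could belong to either row.

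**Figure D4:**
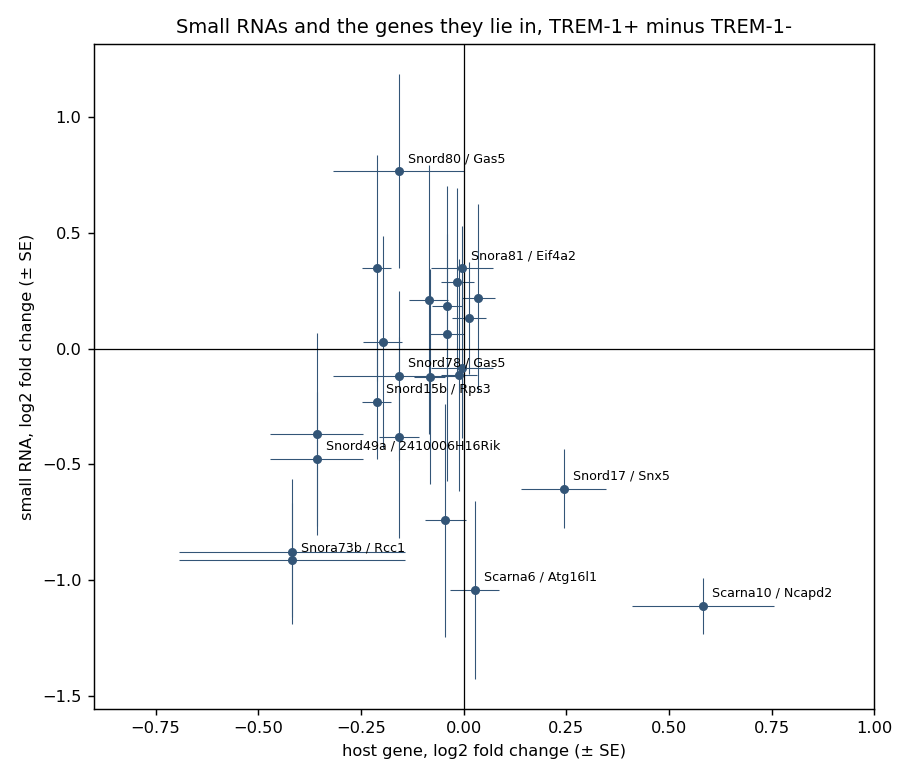
Log2 fold change (TREM-1+ minus TREM-1-, error bars SE) of 24 tested members, vertical axis, against that of their host gene, horizontal axis, with selected pairs named as member / host. Scarna10 and Snord17 lie at the lower right, with the small RNA below and the host above 0.

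In a list of 51 snoRNA host genes, many of which encode ribosomal proteins, 47 were tested, 11 were called lower and 2 higher, beside 6.72% and 3.1% of all genes, with a median log2 fold change of -0.06. Among those lower was Rps3 (-0.21 ± 0.04), and the 2 higher were Rpl3 (0.18 ± 0.05) and Pabpc4 (0.21 ± 0.06), with edgeR adjusted p-values of 6.67e-05, 0.0273 and 0.0285. The directions of this list depend on the scaling: with library totals alone 1 was lower and 7 were higher, and Rps3 was not called (-0.09, adjusted p = 0.223). The calls over all genes moved the same way, from 1229 lower and 568 higher in the reported fit to 376 lower and 1880 higher. When lavage 1, 2 or 4 was left out, 6 host genes were called lower. The call of Rpl3 was lost without lavage 3, 4, 5 or 6 (adjusted p 0.102 to 0.117) and that of Pabpc4 without lavage 1, 3 or 6 (adjusted p 0.0589 to 0.122). The 2 members in Rps3 differed in sign, with -0.23 ± 0.25 for Snord15b and 0.35 ± 0.49 for Snord15a, and neither was called.

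The proteins that bind, make and trim small noncoding RNAs form lists of 161 genes. Of these 156 were tested, 2 were called lower and 2 higher, beside 6.72% and 3.1% of all genes, with a median log2 fold change of 0.02, and the lists of box C/D core, box H/ACA core, Cajal body, 7SK, signal recognition particle, RNase P and MRP and RNA polymerase III genes held 0 called genes. With library totals alone 1 gene of these lists was lower and 16 were higher. Over all genes that fit called 376 lower and 1880 higher, so the shift was not particular to these lists. Usb1, the exonuclease that trims the 3′ end of U6 RNA, fell from 56.0 ± 8.27 to 44.5 ± 7.11 CPM (SD, n = 6; -0.33 ± 0.06, edgeR adjusted p = 4.99e-05). Xrn2, a 5′ to 3′ exonuclease of the nucleus, fell by 0.15 on the log2 scale (adjusted p = 0.0191), a call lost with library totals alone (-0.02, adjusted p = 0.852) and without lavage 1 (adjusted p = 0.117), 3 (0.0527) or 5 (0.0555). Nolc1, a chaperone of snoRNA particles, rose from 7.11 ± 2.60 to 10.3 ± 2.11 CPM (0.56 ± 0.16, adjusted p = 0.0239), a call lost without lavage 2 (0.0557), 3 (0.117), 4 (0.109) or 5 (0.0503). Ints1, a subunit of the Integrator complex that cuts the 3′ ends of small nuclear RNAs, rose by a log2 fold change of 0.22 ± 0.06 (adjusted p = 0.00912), a call lost without lavage 4 (adjusted p = 0.0645). Rpp14, of RNase P, had the lowest fold change of these lists (-1.19 ± 0.88) and did not pass (adjusted p = 0.583), but was called lower with no filter on low counts.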

How the data were processed

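Total RNA of sorted eosinophils was depleted of ribosomal RNA and read as paired ends of 100 bp, per the labels' protocols. The authors deposited estimated counts per gene, for which the submitters' processing notes list the tools kallisto 0.45.0, edgeR 3.42.4 and R 4.3.0 and the build GRCm39. The counts were whole as deposited. A second deposited table of log2 CPM for 17934 genes, 43 of them members, was recomputed from the counts to within 5e-09. Of the per-sample columns 0 were left unused. The sources used here do not say how reads of near-identical genes were divided or whether strand was used.

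The test was that of edgeR 4.0.16 under R 4.3.3 (TMM scaling, filterByExpr by fraction with minimum count 10 and minimum total 15, robust quasi-likelihood fit, lavage as a block, Benjamini-Hochberg adjustment over 18302 genes). The SE was derived from the F statistic, and log2 CPM used a prior count of 1. The series' design text says that both fractions came from the same lavage, and the 2 libraries of a lavage deviated together from their group means (correlations 0.13 to 0.50). Whether separate mice gave each lavage is not in the labels, and p-values then cover only the spread between pools, which may be technical. DESeq2 1.42.0 and limma 3.58.1 were alternatives. The test was checked on simulated data that had no lavage effect, so that check does not cover the pairing. Lengths, sequences and hosts came from GENCODE M21, found for 100 of 102 members. No coordinates are given, since the authors' build differs.

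Members and gene lists were chosen with earlier results of these data known. Members named were those called, the 2 most abundant of each class, those of 1 sign in 6 of 6 lavages and the called members' hosts, with up to 3 called genes of each protein list. Others were named after their values were seen. The values of 1 host gene that this rule names are not reported here.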

Additional observations from a re-analysis of the deposited data

Results flagged for a closer look

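In each fraction of 6 libraries, the gap between the highest or lowest level of a named member and the nearest other library was compared with the range of the fraction. Of 42 such groups 10 stood apart by Dixon's 95% criterion. Its rate of about 1 in 20 by chance holds for independent groups of normally distributed values. These groups share the same 12 libraries, and all 10 flagged values were the highest of their group, so no excess over chance can be read. In lavage 4 Snora81 was the highest of both fractions, at 5.66 (TREM-1-) and 6.98 CPM (TREM-1+), and Snord3b4 was highest in TREM-1- at 61.4 CPM. In lavage 6 Snord17 was the highest of both fractions, at 19.1 (TREM-1-) and 9.73 CPM (TREM-1+). Terc stood apart in the TREM-1- library of lavage 5 at 2.71 CPM. Of members too low to be tested, Rnu7 did so in TREM-1+ of lavage 2 (0.615 CPM), Rny3 in TREM-1+ of lavage 3 (1.02 CPM), Snord4a in TREM-1- of lavage 3 (0.49 CPM) and Snord55 in TREM-1+ of lavage 5 (0.573 CPM).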

How the results depend on the processing

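Beside the 3 members called lower, 1 was called without the replicate block, 6 with DESeq2, 11 with no filter on low counts (of 102 tested), 6 in lavages 1 and 2 alone, 1 without lavages 3 and 4, and 1 to 4 when a single lavage was left out. Scarna10 was among them each time, and 0 members were called higher in any fit. Calls over all genes changed between fits too. The reported fit called 1229 genes lower and 568 higher, against 56 and 27 without the block and 376 and 1880 with library totals alone. Genes called lower were 1269 with DESeq2, 1267 with no filter, 1142 in lavages 1 and 2 alone and 944 without lavages 3 and 4. The counts below are to be read beside these. The members' median log2 fold change, -0.18, was 0.037 in lavages 1 and 2 alone, -0.055 with library totals alone and -0.28 to -0.13 with 1 lavage left out. Genes of the protein lists called lower (2) were 0 without the paired block, 1 with library totals alone, 1 in lavages 3 to 6 alone and 1 to 2 with 1 lavage left out. Those called higher (2) were 0 without the block, 16 with library totals alone, 4 with no filter, 0 without lavages 3 and 4 and 0 to 2 with 1 lavage left out. Host genes called lower (11) were 0 without the block, 1 with library totals alone, 2 in lavages 3 to 6 alone and 6 to 12 with 1 lavage left out. Host genes called higher (2) were 0 without the block, 7 with library totals alone, 0 in lavages 1 and 2 alone, 0 without lavages 3 and 4 and 0 to 3 with 1 lavage left out. Rpl3 went to -0.024 in lavages 1 and 2 alone. Fits of fewer lavages hold fewer libraries, and the cause of the other changes was not tested. A filter set by the whole design, chosen after seeing the data, tested 59 members and called 4 lower. The filter on low counts used for the reported fit left 55 members untested.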

Other observations

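Rows outside the naming rule that RefSeq (GRCm38.p6) types as small RNA genes, nearly all under provisional Gm symbols, gave 122 further tested rows. Of these 75 were below 0, beside 49.1% of all genes tested, with a median log2 fold change of -0.04. EdgeR called 4 lower and 1 higher, beside 6.72% and 3.1% of all genes. Neither share was above that of all genes, so the number of calls is no result about these rows. Of the called rows, Gm24336 had the lowest fold change (-1.03 ± 0.17, SE, edgeR adjusted p = 5.88e-05), at a mean of 8.3 CPM and lower in 6 of 6 lavages, and Gm22063 was higher (1.80 ± 0.50, adjusted p = 0.0167), at a mean of 0.923 CPM. Both were singled out after their values were seen. Rows of this kind include copies with identical counts, such as the 6 rows that equal Rnu1a1, and are not independent.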
